A study of Rattus norvegicus with 12 samples.

Results

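Transcripts of 5 red blood cell genes were followed in the duodenal mucosa of rats that swam and of sedentary rats. The genes were the beta globins Hbb and Hbb-b1, the alpha globin Hba-a1, the erythroid heme enzyme Alas2 and the red cell anion exchanger Slc4a1, taken by their symbol in the platform annotation. Each had 1 probe, so they make up 5 of 22523 probes and 5 of the 13337 genes with a symbol. They were selected on the swimming against control difference of these arrays, which was already known, so that difference is described for them without a test.

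The rats were female Sprague Dawley animals of an outbred strain, labelled 9 weeks of age and 8 weeks on arrival. There were 6 arrays in the swimming group and 6 in the control group. After 1 week of training, swimming rats swam for 1 hour on 5 days a week over 2 weeks, and control rats stayed in the pool without exercise for the same time, with water at 30 to 32 °C for both. The mucosal surface of a duodenal segment of 10 cm was scraped, so each sample is a bulk mixture of epithelium with whatever lamina propria and blood came with it. The sources used here do not say whether the vessels were flushed before scraping. Each sample was read on 1 single-colour Illumina bead array. Nothing beyond the replicate numbers describes the animals singly, so p-values measure the spread between these arrays.

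Haemoglobin carries oxygen as a tetramer of alpha and beta globin chains, each holding a heme group. Alas2 catalyses the first step of heme synthesis in red cell precursors, and Slc4a1, or band 3, exchanges chloride for bicarbonate across the red cell membrane and anchors the membrane skeleton. Young red cells that have just left the bone marrow still hold globin RNA, and mature mammalian red cells have no nucleus, so globin RNA in a vascular tissue such as the intestinal mucosa usually travels with its blood. In a bulk sample, fewer cells of a type and less RNA per cell cannot be told apart.

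The start regions of the members are shown because 3 of the genes, the globins, varied together over the arrays. Each window runs from 250 bases before to 50 bases after the gene start, as RefSeq gives it for rat assembly GRCr8, and reads 5′ to 3′ on the gene's strand. RefSeq promoter sequences were matched for 4 of the 5 genes. Capitals mark exact matches, on either strand, to CCACACCC or its core CACCC, to CCAAT, to TATAAA, to CATAAA and to GATAA.
Hbb, chr1:167663672-167663971, minus strand: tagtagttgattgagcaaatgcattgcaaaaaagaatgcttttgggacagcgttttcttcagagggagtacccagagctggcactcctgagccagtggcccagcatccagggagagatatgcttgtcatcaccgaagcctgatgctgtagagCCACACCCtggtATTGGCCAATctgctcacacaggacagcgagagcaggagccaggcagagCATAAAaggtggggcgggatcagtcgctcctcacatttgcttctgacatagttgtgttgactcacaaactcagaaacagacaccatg
Hbb-b1, chr1:167643471-167643770, minus strand: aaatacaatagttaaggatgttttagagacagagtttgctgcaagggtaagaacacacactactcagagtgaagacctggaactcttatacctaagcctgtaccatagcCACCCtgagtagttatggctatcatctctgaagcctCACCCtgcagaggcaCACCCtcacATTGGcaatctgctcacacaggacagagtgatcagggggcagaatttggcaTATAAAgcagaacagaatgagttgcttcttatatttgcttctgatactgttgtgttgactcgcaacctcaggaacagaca
Hba-a1, chr10:15842531-15842830, minus strand: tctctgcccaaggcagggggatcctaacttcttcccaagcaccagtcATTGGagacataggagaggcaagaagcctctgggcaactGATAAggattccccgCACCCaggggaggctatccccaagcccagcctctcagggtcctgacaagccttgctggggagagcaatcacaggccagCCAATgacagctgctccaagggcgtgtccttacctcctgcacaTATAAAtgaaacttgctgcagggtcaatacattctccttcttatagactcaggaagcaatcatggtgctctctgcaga
Alas2, chrX:22895200-22895499, plus strand: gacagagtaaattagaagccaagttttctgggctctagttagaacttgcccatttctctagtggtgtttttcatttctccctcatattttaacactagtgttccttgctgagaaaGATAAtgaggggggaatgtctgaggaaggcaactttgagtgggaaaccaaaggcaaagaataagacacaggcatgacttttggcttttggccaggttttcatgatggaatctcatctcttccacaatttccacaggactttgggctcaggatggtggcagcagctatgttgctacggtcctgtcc

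The 3 globin windows share a layout that the Alas2 window does not show. In Hbb, CCACACCC starts 98 bases before the gene start, CCAAT stands on both strands from 86 and 81 bases before it, and CATAAA starts 37 bases before it. Hbb-b1 has CACCC at 141, 105 and 90 bases, CCAAT on the opposite strand at 81 bases and TATAAA at 30 bases. Hba-a1 has GATAA at 164, CACCC at 149, CCAAT at 71 and, on the opposite strand, at 203, and TATAAA at 28 bases. The Alas2 window held GATAA at 135 bases, within AGATAA, and none of the other motifs. Over all 33469 rat promoters of this length, 3.22% hold CCACACCC on either strand, 54.9% its core CACCC, 37.5% CCAAT, 14.2% TATAAA, 12.7% CATAAA, 26.5% GATAA and 11.6% AGATAA. These letters are a description of the windows and not evidence that a factor binds there.

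The members with a globin symbol stand in gene clusters of close copies, which bears on what a probe reads. In the RefSeq table, Hbb and Hbb-b1 lie in 1 cluster on chromosome 1, with the beta-like genes Hbbl1 and Hbb-b2 between them, and Hba-a1 lies on chromosome 10 beside Hba-a2 and Hba-a3. Probe sequences were not used here, so the split of signal between near-identical globin copies is uncertain.

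Some arrays stood apart. The array labelled swimming 5 had a mean of 8.39 log2 over 12 duodenal enterocyte genes, against 11.7 to 12.3 in the other 11 arrays, and a mean of 9.33 over 9 large intestine genes, against 7.13 to 7.46. Not all of the large intestine genes rose. In swimming 5, Car1 read 14.94 and Hoxa7 10.76, above every control array, while Aqp8 lay within its control range. Both list means of swimming 5 are at odds with a duodenal label, and results are given with and without this array. Control 3 and swimming 3 were near-identical over 4933 bright probes (spread of log2 differences 0.078), as were control 4 and control 6 (0.12) and swimming 4 and swimming 6 (0.16), below the spread of dim probes in each case. Both pairs inside a group differed by less than that noise and count as 1 sample each in means and SD, giving n = 5 per group. The pair of control 3 and swimming 3 puts nearly the same profile into both groups. Fitted differences and their SE use all arrays singly.

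Hbb was lower in most swimming arrays. On the raw linear scale its signal in control 1 to 6 was 1537, 2725, 1003, 1473, 889 and 1680, and in swimming 1 to 6 it was 1553, 633, 936, 865, 316 and 502. After background correction and quantile normalization, its log2 intensity ran from 9.91 to 11.19 in control arrays (median 10.65) and from 7.99 to 10.47 in swimming arrays (median 9.53). The groups overlapped, because swimming 1 lay inside the control range and the other 5 swimming arrays lay below the lowest control. Swimming 3 did so by only 0.025, against its near-identical partner control 3. The means were 10.54 ± 0.58 in control and 9.40 ± 0.93 in swimming samples (SD, n = 5 each). The fitted difference, swimming minus control, was -1.22 (SE 0.37), or 2.32-fold lower in swimming rats. Without swimming 5 the swimming mean was 9.75 ± 0.58 (SD, n = 4). The fitted difference, from arrays taken singly, was then -0.93 (SE 0.29), or 1.91-fold. With near-identical pairs averaged and swimming 5 kept, the difference was -1.14.

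Hbb-b1, the second beta globin, followed the same order of size. Its raw signal lay between 148 and 1179, and its log2 intensity between 8.73 and 9.94 in control arrays (median 9.25) and between 7.04 and 9.03 in swimming arrays (median 8.24). Here 4 of 6 swimming arrays lay below every control array, while swimming 1 lay inside the control range and swimming 3 read 8.73, level with control 3. The means were 9.22 ± 0.54 in control and 8.20 ± 0.77 in swimming samples (SD, n = 5 each). With near-identical pairs averaged the difference was -1.02. The fitted difference, from arrays taken singly, was -1.09 (SE 0.32), and -0.86 (SE 0.25) without swimming 5.

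Hba-a1, the alpha globin, had a strong signal, with 96.7% of all probes dimmer over the 12 arrays. Its raw signal was 5145, 6847, 4156, 4894, 4011 and 5070 in control 1 to 6 and 5957, 3178, 3778, 3735, 899 and 1890 in swimming 1 to 6. Against a highest value of 46518 for any probe, it was not near the top of the scale. Its log2 intensity ran from 11.90 to 12.81 in control arrays and from 9.56 to 12.37 in swimming arrays, with 5 swimming arrays below the lowest control and swimming 1 again inside the control range. The means were 12.28 ± 0.38 and 11.34 ± 1.07 (SD, n = 5 each), and the difference with near-identical pairs averaged was -0.94. The fitted difference, which takes all arrays singly, was -0.99 (SE 0.38), and -0.62 (SE 0.21) without swimming 5. That array thus moved the fitted difference more than 1.5 times. Without it the averaged swimming mean was 11.78 ± 0.44 (SD, n = 4).

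Of the 5 members, 2 (Hbb and Hba-a1) had at least 5 of 6 swimming arrays below the lowest control array. This was so for 0.919% of all 22523 probes, and since that contrast chose the members nothing is read from the count. Averaged over the 3 globin genes, each with equal weight, the level was 10.68 ± 0.49 log2 in control and 9.65 ± 0.92 in swimming samples (SD, n = 5 each). With arrays taken singly, the difference was -1.10 log2, or 2.14-fold, over the 12 arrays and -0.80, or 1.74-fold, without swimming 5. With near-identical pairs averaged it was -1.03. Without swimming 5 the averaged swimming mean was 10.01 ± 0.50 (SD, n = 4), nearer to the control mean. Without swimming 5 and without the pair that spans the groups, where 4 control samples met 3 swimming samples, the difference was -0.85.

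**Figure D1:**
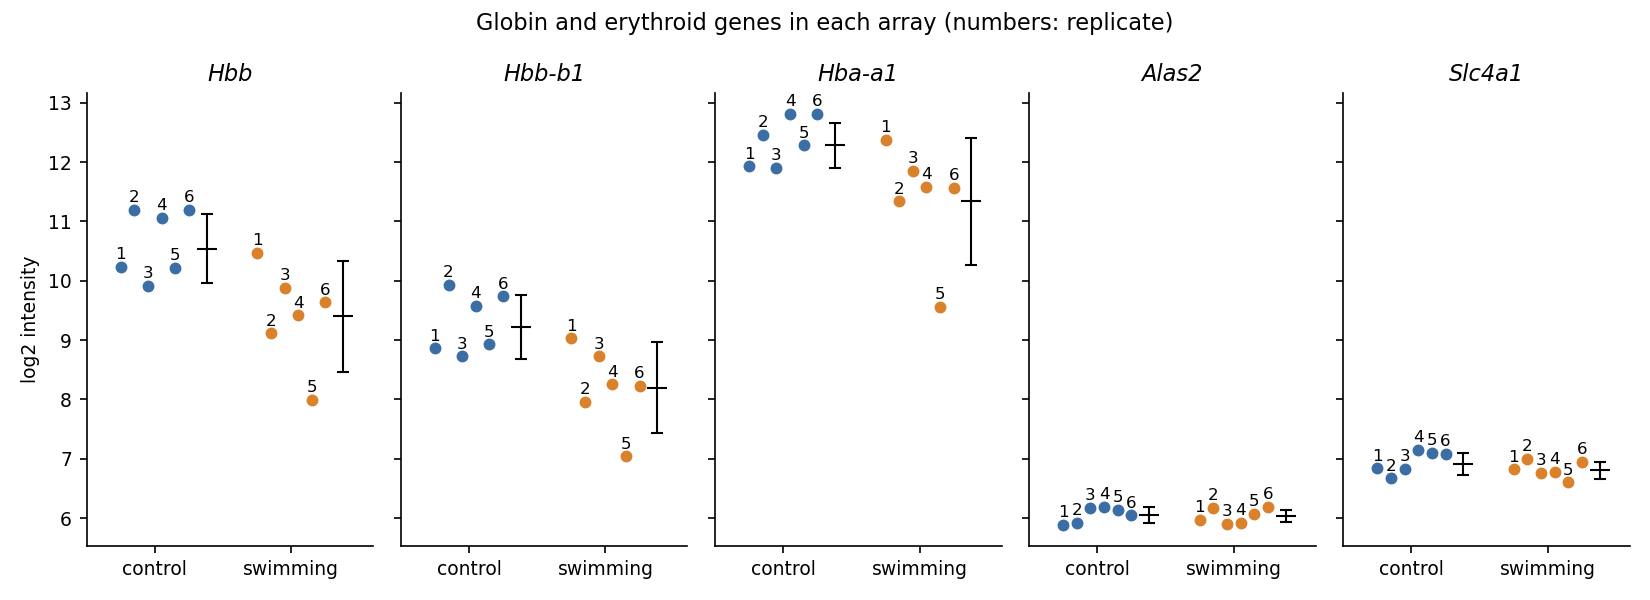
Log2 intensity of Hbb, Hbb-b1, Hba-a1, Alas2 and Slc4a1 in each array, with control arrays in blue, swimming arrays in orange and replicate numbers beside the points; black bars give the mean ± SD of 5 samples, in which near-identical arrays of a group are averaged. The globins span several log2 units with swimming 5 lowest, while Alas2 stays between 5.88 and 6.18 and Slc4a1 between 6.60 and 7.15.

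The non-globin members differed little between groups. Alas2 had a raw signal of 55 to 69, below the median probe of its own array in 12 of 12 arrays, and 15.6% of all probes were dimmer. Its log2 intensity was 6.05 ± 0.13 in control and 6.03 ± 0.10 in swimming samples (SD, n = 5 each). The fitted difference was -0.022 (SE 0.075), and no swimming array lay below the lowest control. Slc4a1 had a raw signal of 87 to 134, brighter than the median probe, with 67.0% of probes dimmer. Its log2 intensity was 6.91 ± 0.19 and 6.81 ± 0.14 (SD, n = 5 each). The difference over the 12 arrays was -0.13 (SE 0.095), which became -0.082 (SE 0.094) once swimming 5 was dropped, and 1 swimming array lay below the lowest control. At such signal a difference between groups understates a difference in RNA. No detection p-value comes with these signals, so neither gene is called absent, and the label of an erythroid group rests on the 3 globins.

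The globins varied together from array to array. Ranked by the mean of the 3 genes, control 6 (11.25), control 2 (11.19) and control 4 (11.15) were highest, and then came swimming 1 (10.62), control 5 (10.48), control 1 (10.34), control 3 (10.18) and swimming 3 (10.15). Swimming 6 (9.81), swimming 4 (9.75) and swimming 2 (9.47) were lower, and swimming 5 (8.20) was lowest. The controls thus comprised 3 arrays near 11.2 and 3 between 10.18 and 10.48, and the lower 3 read like swimming 1 and swimming 3. Control 4 and control 6, 2 of the 3 highest, are a near-identical pair and may carry 1 profile. The same holds for control 3, 1 of the lower 3 controls, and swimming 3.

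The log2 gap between the Hbb and Hbb-b1 probes had an SD of 0.16 over the 12 arrays, while Hbb itself had an SD of 0.93 and Hbb-b1 of 0.81. The gap between Hba-a1 and Hbb had an SD of 0.28, with a range of 0.97. It was smallest in control 2 (1.26) and swimming 5 (1.56) and largest in swimming 2 (2.23). Alpha and beta globin signals therefore kept a less even proportion than the pair of beta globins. Over the 8 points left when swimming 5 is dropped and each near-identical pair is averaged, Pearson's r with the mean of the other globins was 0.99 for Hbb, 0.97 for Hbb-b1 and 0.94 for Hba-a1, but -0.36 for Alas2 and -0.080 for Slc4a1. Over all 12 arrays r was 0.99, 0.98 and 0.95 for the globins in that order, -0.13 for Alas2 and 0.48 for Slc4a1. The r describe points that share arrays and their normalization, for genes picked together.

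**Figure D2:**
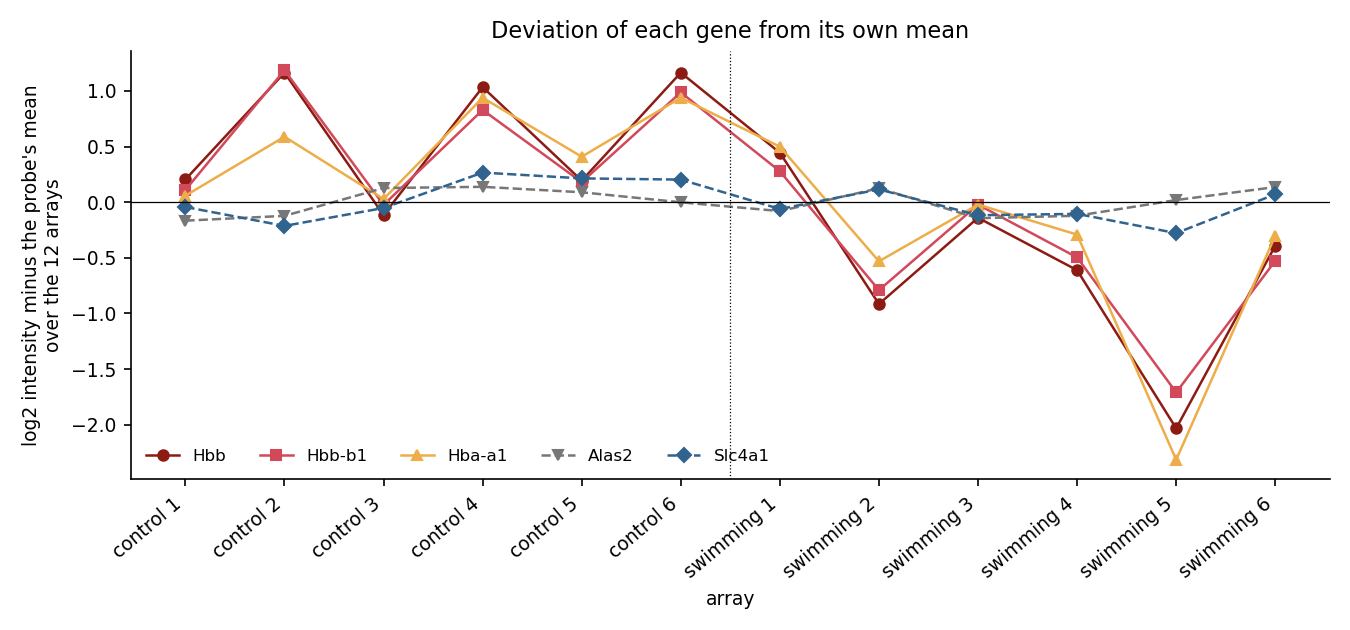
Log2 intensity of each member minus that probe's mean over the 12 arrays (vertical axis), for the 6 control and 6 swimming arrays (horizontal axis); lines only join the points of a gene. Hbb, Hbb-b1 and Hba-a1 run together, with Hba-a1 closer to its mean than both beta globins in control 2, while Alas2 and Slc4a1 vary little.

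Spread among control rats was large for the globins before any comparison with swimming. Over the 5 control samples the SD was 0.58 for Hbb, larger than in 94.0% of the probes brighter than the median probe, 0.54 for Hbb-b1 (92.7%) and 0.38 for Hba-a1 (81.4%). The median SD of those probes was 0.22. For Slc4a1 41.4% of them had a smaller SD.

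Other genes of the red cell were read to see whether they moved with the globins. In a list of 36 red cell membrane, cytosol and further globin genes, none of them a member, 24 had a probe. Of these, 14 read lower and 10 higher in swimming rats, with a median difference of -0.0095 (-0.016 without swimming 5), where 50.6% of all probes read lower with a median of -0.0015. limma called 0 of the 24 after Benjamini-Hochberg adjustment over all probes, with 2 at an unadjusted p under 0.05 (Hbg1 and Rhd, both dimmer than the median probe). Over all 22523 probes it called 0, or 0%, with 4.78% at an unadjusted p under 0.05. Without swimming 5 it also called 0%, with 5.05% unadjusted, 2 of the 24 among them, and 13 of the 24 read lower. limma's adjusted p was at least 0.911 for each of these genes with all arrays. Hba-a3 and the water channel gene Aqp1, both described below, were not on this list and differed by -0.49 and 1.25.

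Of the 24, 12 were brighter than the median probe, and 10 of those 12 read lower, beside 50.3% of all 11261 brighter probes. Without swimming 5 the count was 9 of 12, beside 51.4%. With median scaling in place of quantile normalization it was 6 of 12, beside 31.6%, where the median over brighter probes was 0.072. Slc25a39, a mitochondrial carrier, differed by -0.29 (SE 0.14), Fbxo7, a ubiquitin ligase subunit, by -0.16 (SE 0.075), and Bpgm, which makes the 2,3-bisphosphoglycerate that lowers haemoglobin's oxygen affinity, by -0.17 (SE 0.14). Epb42, a membrane protein that binds band 3, differed by -0.16 (SE 0.088), and Ahsp, the chaperone of free alpha globin, by -0.084 (SE 0.10; -0.15 without swimming 5). Slc25a38, the mitochondrial glycine carrier for heme synthesis, differed by -0.081, Hba-a2 by -0.041, Bnip3l, which marks mitochondria for removal in maturing red cells, by -0.026, Dmtn, an actin-bundling protein of the membrane skeleton, by -0.014 and Nt5c3a, a pyrimidine nucleotidase, by -0.0015. Epb41, which links spectrin to the membrane, read higher by 0.055 and Gypc, glycophorin C, by 0.074. Without swimming 5, values that turned sign or moved by over 1.5 times were 0.15 for Nt5c3a, -0.15 for Bnip3l, 0.0021 for Dmtn, -0.019 for Hba-a2, -0.053 for Epb41 and 0.27 for Gypc. With all arrays each of these was smaller in size than the smallest globin difference, and most were within 1 SE of 0. Several of them, such as Epb41, Bnip3l and Nt5c3a, are also made by many other cells.

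The other 12 had log2 means between 6.01 and 6.30 and differences between -0.17 and 0.10. They were the skeleton genes Sptb, Ank1, Add2 and Tmod1, the Rh genes Rhd and Rhag, the urea transporter gene Slc14a1, the embryonic and fetal-type beta-like globins Hbe1, Hbe2 and Hbg1, and Hemgn and Trim10.

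**Figure D3:**
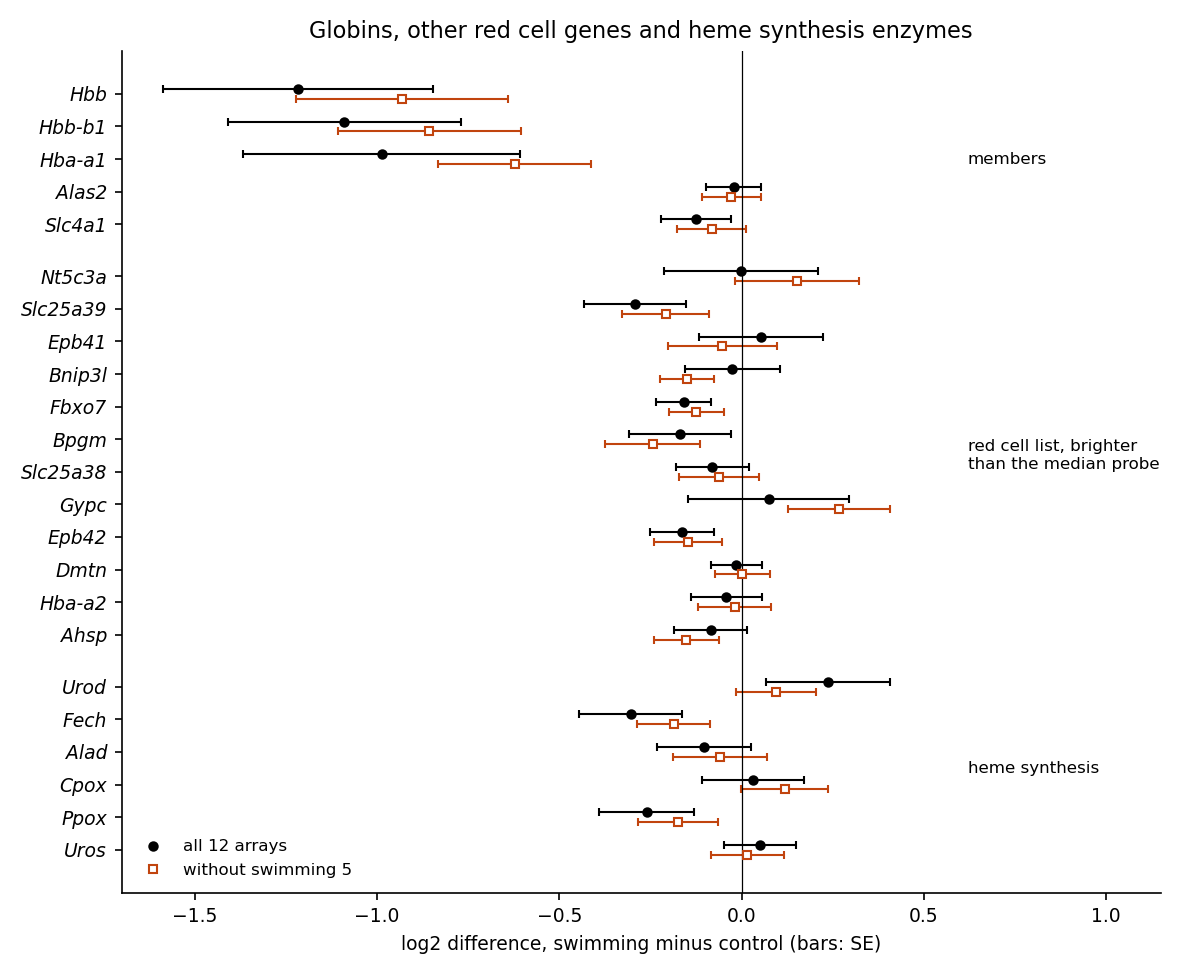
Log2 difference, swimming minus control, with SE, for the 5 members, the 12 brighter genes of the red cell list and 6 heme synthesis enzymes, from all 12 arrays (black) and without swimming 5 (open squares). The 3 globins lie between -1.22 and -0.99 with all arrays and between -0.93 and -0.62 without swimming 5, and the other genes lie between -0.30 and 0.24 with all arrays.

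Heme synthesis enzymes, which every cell uses, were measured for 6 of 8 genes, and all 6 probes were brighter than the median probe. limma called 0 of 6 (0 unadjusted), with 3 lower and 3 higher in swimming rats and a median of -0.036. Fech, which inserts iron into the ring at the last step, differed by -0.30 (SE 0.14), Ppox by -0.26 (SE 0.13) and Alad, which acts right after Alas2, by -0.10 (SE 0.13). Urod differed by 0.24 (SE 0.17), Uros by 0.051 (SE 0.099) and Cpox by 0.031 (SE 0.14). Without swimming 5, Fech moved to -0.19, Alad to -0.059, Urod to 0.095, Uros to 0.016 and Cpox to 0.12, each by over 1.5 times, and the median was -0.022.

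Genes that clear or carry heme were called in 0 of 12 cases (0 unadjusted), with 8 lower, 4 higher and a median of -0.013. Without swimming 5, 6 read lower and 6 higher, with a median of 0.0058 and 0 called (0 unadjusted). Hmox1, the inducible heme oxygenase, read 9.36 ± 0.45 in control and 8.82 ± 1.16 in swimming samples (SD, n = 5 each). The fitted difference was -0.61 (SE 0.41), which became -0.26 once swimming 5 was dropped. Hmox2, the constitutive form, differed by 0.072 (SE 0.081; 0.12 without swimming 5), Blvra, which reduces biliverdin, by -0.23 (SE 0.19; -0.038 without swimming 5), and Abcg2, a transporter that exports porphyrins, by -0.0094 (SE 0.19; 0.12 without swimming 5). The Hmox1 and Blvra differences thus shrank by more than 1.5 times without swimming 5.

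Regulators of red cell formation were split by signal. Of 16 measured, 8 were brighter than the median probe, among them Tal1, a transcription factor of blood formation, Epor, the erythropoietin receptor, and Tfr2, a transferrin receptor. The other 8 were dimmer, among them the erythroid transcription factors Gata1, Klf1, Nfe2 and Gfi1b. limma called 0 of the 16 (1 unadjusted, the dim Nfe2), with 12 lower, 4 higher and a median of -0.035, or -0.074 without swimming 5. Each of the 8 brighter ones read lower with and without swimming 5, beside 50.3% and 51.4% of all brighter probes. The 4 that read higher were dim. Tal1, Tfr2, Epor and Lyl1 were within 1 SE of 0 with all arrays, and Lyl1 turned sign under median scaling. Epor turned sign, to 0.0091, where 4 control samples met 3 swimming samples. Under median scaling 31.6% of all brighter probes read lower, and the count of these 8 there is not given here. The brightest were the widely used signalling genes Jak2 at -0.17 (SE 0.17) and Stat5b at -0.35 (SE 0.16; -0.22 without swimming 5) and the transcription regulators Lyl1 at -0.037 (SE 0.12; -0.14 without swimming 5) and Ldb1 at -0.14 (SE 0.10). Globins of other cells read close to the median probe or below it. The log2 mean was 6.39 for Cygb, 6.21 for Mb, the myoglobin of muscle, and 6.02 for Ngb, the neuronal globin. Their differences lay between -0.018 and 0.032, with 0 of 3 called (0 unadjusted). The median was -0.0062 with 2 of 3 lower, and 0.013 with 1 of 3 lower without swimming 5.

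Markers of other blood cells were set beside the globins. Of 7 platelet genes, 1 (Pf4, platelet factor 4) was brighter than the median probe, ahead of Ppbp, Treml1 and Selp, and the list mean lay between 6.15 and 6.26 in control and between 6.11 and 6.22 in swimming arrays. Of 19 neutrophil genes, 3 were brighter (Mmp9, Camp and Mpo, followed by Csf3r), and the means lay between 6.19 and 6.27 and between 6.18 and 6.28. Defining genes of both cell types, such as Gp9 and Gp1bb for platelets and S100a8, S100a9 and Elane for neutrophils, were dimmer than the median probe. limma called 0 of 7 platelet genes (0 unadjusted) and 0 of 19 neutrophil genes (3 unadjusted), with medians of -0.0074 and 0.021, or -7.6e-05 and 0.014 without swimming 5. All 12 measured lymphocyte and monocyte genes were brighter than the median probe, with the brightest being Cd74, Cd3g, Ptprcap and Cd3d. limma called 0 of these 12 (0 unadjusted), with 7 lower and a median of -0.053 with all arrays, and 4 lower and a median of 0.049 without swimming 5.

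Vessel and stroma genes mostly read higher in swimming rats, where the globins read lower. Of 17 endothelial genes, 13 read higher in swimming rats, with a median of 0.088 and 0 called by limma (2 unadjusted). The 4 that read lower, Clec14a, Icam2, Tie1 and the dim Robo4, had differences between -0.18 and -0.044. Over all probes, 50.6% read lower, or 51.2% without swimming 5. Without swimming 5, 12 of the 17 endothelial genes read higher, with a median of 0.042 and 0 called (1 unadjusted). Aqp1, a water channel of red cell membranes and of endothelium, differed by 1.25 (SE 0.24; adjusted p = 0.911 with limma), and Plvap, of the fenestrated capillary wall, by 0.37 (SE 0.26). Cldn5, a tight junction protein of endothelium, differed by 0.21 (SE 0.094) and Esam, an endothelial adhesion molecule, by 0.17 (SE 0.20), or by -0.024 without swimming 5. The endothelial mean was lowest in control 6 (6.65) and control 4 (6.66), a pair with high globin, but high in control 2 (6.999), which also had high globin. Of 11 stroma genes, led by Fbln1, Col1a2, Col6a1 and Dcn, 10 read higher, with a median of 0.17, and the means ran from 6.95 in control 6 to 8.14 in swimming 1 and 8.05 in control 2. limma called 0 of the 11 (1 unadjusted). Without swimming 5, 10 of the 11 again read higher, with a median of 0.22 and 0 called (2 unadjusted). The part of vessel content in the globin differences was not tested.

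Tissue from outside the epithelium also varied between arrays. The mean of 14 pancreatic enzyme genes, led by Cela1, Pnlip, Cpa1 and Cela2a, was 10.34 in swimming 2, 9.31 in control 3 and 9.30 in swimming 3, against 6.41 to 7.55 in the other arrays. The globin mean in those arrays was 9.47, 10.18 and 10.15. Within the list Cela1 was bright in every array, at 9.16 to 9.89 in control and 9.68 to 10.77 in swimming arrays. The median difference of that list was 0.82 with all 14 higher and 0 called by limma (1 unadjusted). For 8 smooth muscle genes, led by Actg2, Des, Smtn and Tagln, the means ran from 7.13 to 7.89, highest in swimming 1 and control 2, with a median difference of 0.017, or 0.059 without swimming 5, and 0 called in both (0 unadjusted in each). Enterocyte genes, led by Fabp2, Fabp1, Vil1 and Alpi, read lower in 11 of 12 cases with all arrays (median -0.29) and in 5 of 12 without swimming 5 (median 0.053), with 0 called in both (0 and 1 unadjusted). Large intestine genes, led by Aqp8, Slc26a3, Car1 and Scnn1g, read higher in 8 of 9 cases with all arrays (median 0.42) and in 4 of 9 without swimming 5 (median -0.046), with 0 called in both (1 unadjusted in each). Hypoxia-induced genes, among them Ldha, Pgk1, Ndrg1 and Pdk1, had a median of 0.021 with 6 of 14 lower, and of -0.021 with 10 of 14 lower without swimming 5, with 0 called in both (0 unadjusted in each). Whether these differences in tissue content bear on the globins was not tested.

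**Figure D4:**
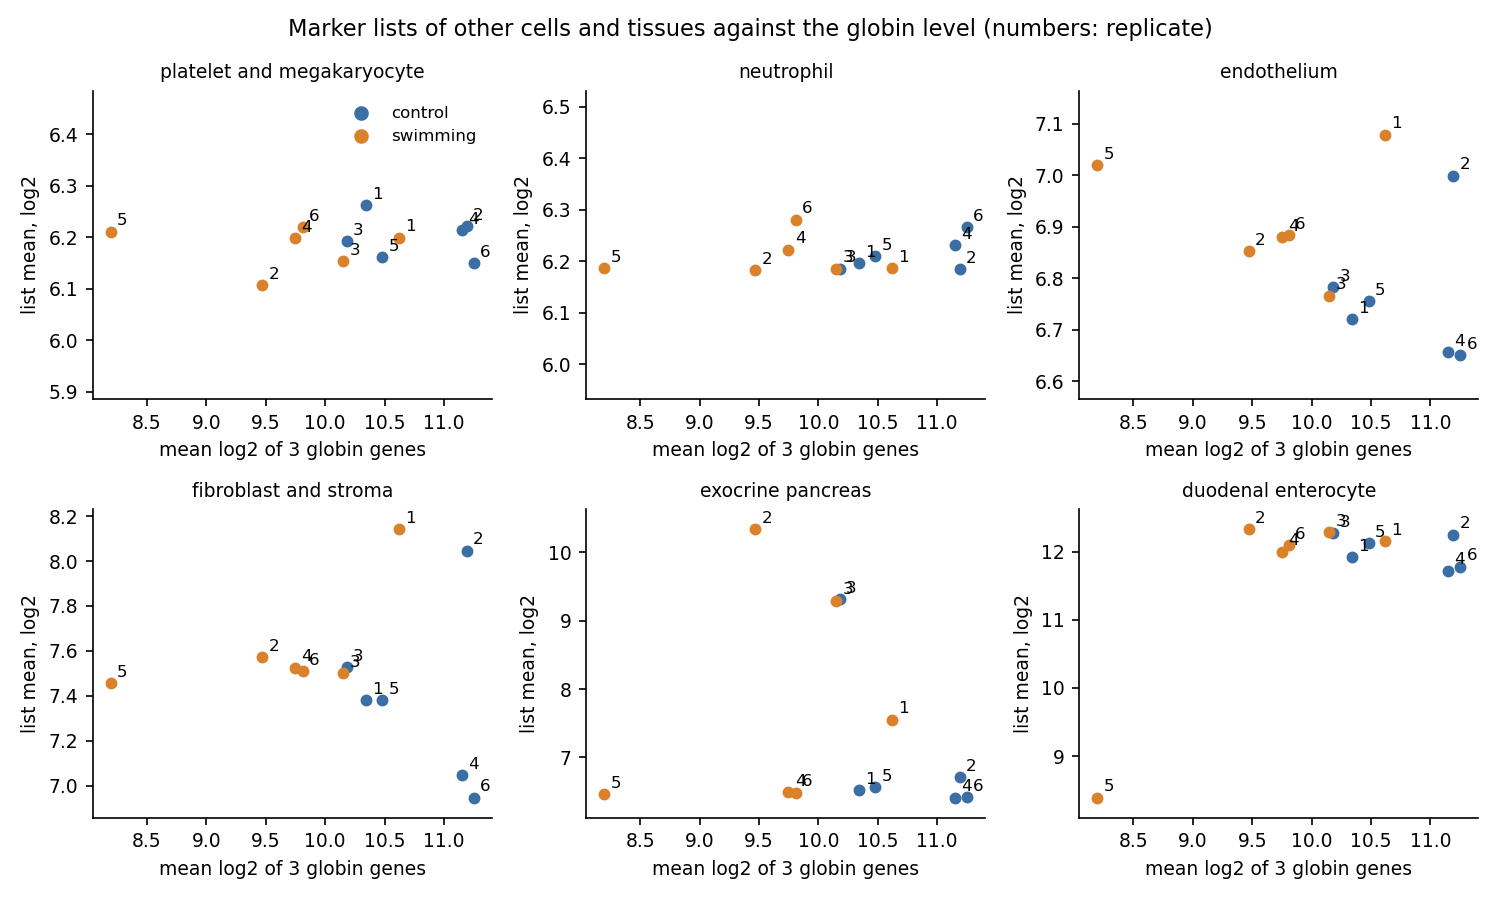
Mean log2 intensity of 6 marker lists (vertical axes) against the mean log2 intensity of Hbb, Hbb-b1 and Hba-a1 (horizontal axes) in each array, control in blue and swimming in orange, with replicate numbers. Platelet and neutrophil means stay between 6.11 and 6.28 over the whole span of the globins, and swimming 5 stands alone at an enterocyte mean of 8.39.

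The genes whose pattern was most like the globin mean were sought over the same 8 points, among 8028 named probes brighter than the median probe that are no members. The nearest were Galnt18 (r = 0.98), Tm2d3 (0.93), Pik3c2b (0.93), Bcl2a1 (0.93), Hba-a3 (0.93), Rbm28 (0.93), Bnip3l (0.92), Pacc1 (0.91), Bhlhe40 (0.90) and Pabpc2 (0.90), Pearson's r in each case. With 8028 candidates and 8 points, these r are given only as a description. Over all 12 arrays r was 0.97 for Bhlhe40, a repressor linked to the circadian clock, 0.92 for Hba-a3 and 0.82 for Bcl2a1, an anti-apoptotic protein of the BCL2 family. It turned to -0.69 for Galnt18, which read 10.75 in swimming 5 and between 6.27 and 6.68 elsewhere, and lay between -0.29 and -0.038 for Tm2d3, Rbm28, Bnip3l and Pacc1.

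Hba-a3, an alpha globin copy outside the chosen set, shared the order of the adult globins at low signal. Its log2 intensity was 6.98 ± 0.20 in control and 6.54 ± 0.33 in swimming samples (SD, n = 5 each), with a raw signal of 63 to 154. The fitted difference was -0.49 (SE 0.14), and limma's adjusted p was 0.911. Hba-a3 was picked for its likeness to the globin mean, which the same contrast chose, so its lower reading is no separate result. Without swimming 5 the difference was -0.41 (SE 0.12). Its probe may share signal with Hba-a1, and that was not tested, whereas the probe of Hba-a2 read 6.46 ± 0.14 and 6.40 ± 0.19.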

How the data were processed

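Total RNA of scraped duodenal mucosa was amplified to biotin-labelled cRNA and read on Illumina rat bead arrays, per the labels' protocols. Per the file headers, values of the main deposited table are average bead signals, that is, linear intensities. Array medians lay between 62.7 and 88.8, so these intensities were not scaled between arrays. The authors also deposited processed intensities of the same arrays, which read as background-subtracted and scaled, with 26.2 to 26.3% of values below 0. Its method, the scanner and the reading software are not given in the sources used here.

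The deposited raw intensities went through normexp background correction (offset 50), quantile normalization and log2, and limma 3.58.1 in R 4.3.3 (lmFit, eBayes, two-sided) was fitted to all 22523 probes on the 12 arrays, with calls at a Benjamini-Hochberg adjusted p under 0.05. The limma fit was tested on simulated data with independent noise, which held no outlying and no near-identical arrays. Groups come from the sample titles. Symbols come from the platform annotation, an old one; 13752 of 13793 named probes matched the GRCr8 gene table by Entrez identifier, no symbol changed, and 8730 probes are unnamed here. A gene with several probes is read from its brightest. Arrays were near-identical where log2 differences of bright probes (mean above 8) spread less, by scaled median absolute deviation, than those of 5147 dim probes (mean under 6.1).

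The members and lists were chosen with earlier results of these data known. Named were all members, the measured red cell and heme synthesis genes and other-cell globins, the 4 brightest genes of each other list, any gene called, and the 10 genes most like the globin mean. A pair of genes at an unadjusted p, the defining platelet, neutrophil and erythroid genes and the extra values of Hba-a3 were chosen after their values were seen. So were the endothelial genes that read lower and the large intestine gene Hoxa7. Alternatives were another background correction, offset, scaling and moderation, the authors' processed intensities, a filter on dim probes, averaged or omitted near-identical arrays, a replicate block and each array left out. The number of arrays limits the precision.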

Additional observations from a re-analysis of the deposited data

Results flagged for a closer look

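Within groups of 5 samples, 72 group values of the members and of the genes with a printed difference were screened for a sample far from the others by Dixon's gap over range, and 6 stood apart. Chance flags about 1 in 20 groups. No member was among them. In swimming 5, Bpgm read 10.38 against 9.85 to 9.98 in the other swimming samples, Gypc read 6.59 against 7.67 to 7.82, Stat5b read 7.40 against 7.99 to 8.19 and Blvra read 9.92 against 10.97 to 11.25. In control 5, Gypc read 6.81 against 7.49 to 7.73 in the other control samples and Esam read 6.54 against 6.92 to 7.07. The cause was not tested. The 4 values of swimming 5 come from the array whose segment markers go against its label.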

How the results depend on the processing

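The globin mean difference kept its sign under every alternative run, between -1.28 (the authors' processed intensities, floored at 16) and -0.85 (near-identical pairs averaged, and swimming 5 and the pair across groups left out), against a control SD of 0.49; leaving out each array gave -1.29 to -0.80. No fit averaged the near-identical pairs with only swimming 5 left out, where the globin means were 10.68 in control and 10.01 in swimming samples. Every globin gene had 1 probe, so averaging probes gave the same value. limma called 0 probes and 0 of 184 listed genes (11 unadjusted, 10 without swimming 5) with all arrays and in each alternative, and 0 without swimming 5 under each of its settings. The smallest adjusted p was 0.112, without control 3. Replicate numbers are shared between groups. Deviations of the 6 same-numbered pairs correlated from -0.025 to 0.73, the latter for the near-identical pair, with 3 of 6 above 0.1. Of 6 control arrays, 2 matched their own number best. These values gave no clear sign that the numbers pair the rats. They cannot exclude it, since swimming 5 and the near-identical arrays entered them. With the replicate block the globin difference was -1.10 and 0 probes were called. A slide block was not run, since the headers name no slide. Of 31 genes named with a difference beside the members, 12 turned sign under an alternative. Under median scaling, Nt5c3a read 0.12, Bnip3l 0.081, Slc25a38 0.081, Dmtn 0.00039, Alad 0.039, Lyl1 0.10 and Abcg2 0.093. Under cyclic loess, Nt5c3a read 0.027 and Abcg2 0.018. With near-identical pairs averaged, Bnip3l read 0.0061 and Cpox -0.056. In the restricted comparison of 4 control with 3 swimming samples, Nt5c3a read 0.21, Epb41 -0.047, Dmtn 0.0034, Hba-a2 0.034, Abcg2 0.096 and Esam -0.020. Leaving out each array gave -0.11 to 0.15 for Nt5c3a, -0.053 to 0.14 for Epb41, -0.15 to 0.029 for Bnip3l, -0.060 to 0.27 for Gypc, -0.048 to 0.028 for Dmtn, -0.037 to 0.12 for Cpox, -0.14 to 0.016 for Lyl1, -0.099 to 0.12 for Abcg2 and -0.024 to 0.26 for Esam. The cause was not tested. Dim probes, Alas2 among them, limit what these arrays can show of low transcripts.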
